A study of Mus musculus with 8 samples.

Results

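Polyribosome-associated mRNA of 8 genes that restrain MAP kinase signalling was followed across 8 libraries from mouse prefrontal cortex and hippocampus. The genes were the MAP kinase phosphatases Dusp1, Dusp4, Dusp5, Dusp6 and Dusp14, the Sprouty proteins Spry2 and Spry4, and the pseudokinase Trib1. They were chosen by name, as known phosphatases and feedback inhibitors of the pathway, and make up 8 of the 21643 genes of the deposited table. Where a gene has several rows the one with the most counts was to be taken, and each of the 8 had exactly 1 row. C57Bl/6 mice aged 7 to 9 weeks were exposed to a context alone (controls) or underwent contextual fear conditioning, in which a chamber is paired with foot shock, and tissue was taken 1 h or 6 h later. There was 1 library for each combination of tissue, training and time, so no combination had a replicate. The labels' protocol gives 4 control and 4 conditioned mice and does not say which mice entered which library. The p-values therefore measure only a spread between these libraries, which may be technical. In the model of 6 libraries used below, this spread is how unlike the tissues were in their differences with time and training. Information on it is shared across genes. A response that differs between the tissues thus counts as error. No library from untrained home-cage mice and no total RNA was analysed here. Less of a message on polyribosomes thus cannot be told apart from less of it in all, nor fewer cells of a type from less RNA per cell.

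MAP kinases carry signals from growth factor receptors, neurotrophin receptors and calcium entry to the nucleus through a chain of phosphorylations, of which the ERK branch is required for many forms of synaptic plasticity and for fear memory. Dual-specificity phosphatases switch the kinases off by removing phosphate from both a threonine and a tyrosine of the activation loop, while Sprouty proteins act upstream, between the receptor and Ras. Several of these genes are themselves induced by the pathway, so their messages serve as delayed brakes and as readouts of recent ERK activity.

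Libraries held between 2370973 and 5296986 counts, and levels are given as CPM, a library's counts scaled to a common depth with TMM factors. In 6 of the 8 libraries the markers followed the tissue labels: 10 of 12 hippocampal markers were higher and 6 of 10 cortical markers lower in the hippocampus, and so were 7 of 9 striatal markers, with a summed level of 178.9 to 367.5 CPM in the cortex libraries against 29.9 to 68.0 CPM in the hippocampus. The conditioned 1 h libraries, labelled cortex and hippocampus, could not be distinguished. Over 15511 rows their differences averaged 1.08 times counting noise, 0 rows passed, and the next closest pair of libraries averaged 5.05. Both lay between the tissues in their markers, so they entered neither the tissue nor the training comparison below and their values are given separately. The hippocampus control 6 h library also stood apart: it was the shallowest, and 8.01% of its counts fell on Kif5c, a kinesin motor gene, and its GC trend, given below, differed from that of the other 6 h libraries. Fitted changes of the 8 messages that passed are given with and without it. Named pathway and marker genes are given with it only, and a hippocampal training ratio at 6 h cannot be given without it.

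Levels per unit of transcript length are given for 3 libraries. In the cortex control 1 h library Dusp14 was the most abundant of the 8, at 69.0 CPM per kilobase, followed by Dusp1 (59.5), Dusp6 (37.2), Spry2 (26.0), Trib1 (12.2), Dusp4 (5.90), Spry4 (3.73) and Dusp5 (1.5). In the hippocampus control 1 h library Dusp14 (22.6), Dusp1 (19.7), Spry2 (19.3) and Dusp6 (17.8) were the most abundant, followed by Dusp4 (6.603), Trib1 (4.07), Spry4 (3.56) and Dusp5 (1.59). In the hippocampus conditioned 6 h library, which differs from the first in tissue, training and time, the order was Spry2 (17.7), Dusp1 (15.5), Dusp14 (13.8), Dusp6 (11.3), Dusp4 (6.55), Spry4 (3.63), Trib1 (2.97) and Dusp5 (0.837). Dusp5 was thus the scarcest message in each of the 3, and its 96 counts over all libraries limit what can be said of it.

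**Figure D1:**
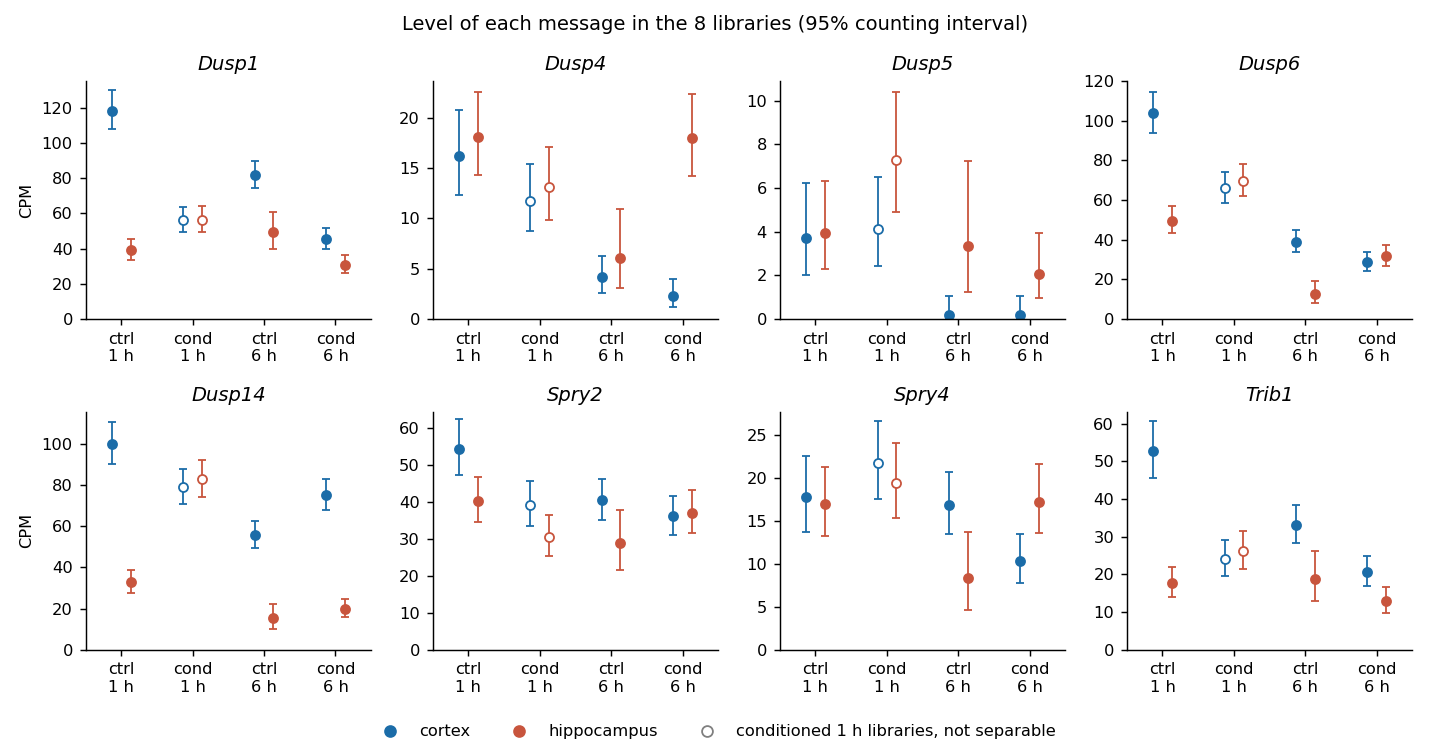
Level of each message (CPM, linear axis starting at 0) in the 8 libraries, grouped by training and time, with 95% counting intervals; blue is cortex, red is hippocampus and open circles are the conditioned 1 h libraries that could not be told apart. Dusp6 was above 49 CPM in both 1 h controls and below 39 CPM in every 6 h library, and Dusp14 was higher in each cortex library than in any hippocampus library outside the open circles.

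Promoter windows of 5 of the 8 genes were used, and those of 4 phosphatases are shown: Dusp6 and Dusp14, which passed between times or tissues, and Dusp1 and Dusp5 for their motifs. They are RefSeq windows (GRCm38.p6) from 250 bases before to 50 bases after a start of transcription, 5′ to 3′ on the strand of the gene. For Dusp14 this start lies inside the gene, whose range extends upstream to base 84069256, outside the window. Capitals mark a match, on either strand, to 1 of 6 motifs: the cAMP response element (CRE, TGACGTCA), the CArG box bound by serum response factor, AP-1 (TGANTCA), EGR (GCGNGGGCG), the Ets core CCGGAA and TATAAA. The windows lie at chr17:26508423-26508722 (minus strand, Dusp1), chr19:53528895-53529194 (plus strand, Dusp5), chr10:99262981-99263280 (plus strand, Dusp6) and chr11:84068308-84068607 (minus strand, Dusp14).
Dusp1: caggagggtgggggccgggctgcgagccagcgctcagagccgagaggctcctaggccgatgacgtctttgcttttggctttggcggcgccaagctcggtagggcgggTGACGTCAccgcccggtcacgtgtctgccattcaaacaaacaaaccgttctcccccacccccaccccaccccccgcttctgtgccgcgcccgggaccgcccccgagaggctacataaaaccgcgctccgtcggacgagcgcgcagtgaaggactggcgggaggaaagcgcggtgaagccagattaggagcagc
Dusp5: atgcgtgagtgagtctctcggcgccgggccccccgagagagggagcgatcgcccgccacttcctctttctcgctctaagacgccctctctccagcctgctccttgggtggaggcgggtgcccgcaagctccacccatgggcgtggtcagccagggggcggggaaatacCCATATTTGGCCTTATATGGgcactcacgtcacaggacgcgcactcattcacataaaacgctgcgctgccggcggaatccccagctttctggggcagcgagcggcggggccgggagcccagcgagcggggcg
Dusp6: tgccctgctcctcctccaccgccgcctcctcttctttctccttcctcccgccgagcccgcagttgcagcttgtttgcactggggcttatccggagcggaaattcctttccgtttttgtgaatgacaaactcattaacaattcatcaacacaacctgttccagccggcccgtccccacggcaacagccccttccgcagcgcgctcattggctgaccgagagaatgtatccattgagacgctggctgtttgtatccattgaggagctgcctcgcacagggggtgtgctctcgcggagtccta
Dusp14: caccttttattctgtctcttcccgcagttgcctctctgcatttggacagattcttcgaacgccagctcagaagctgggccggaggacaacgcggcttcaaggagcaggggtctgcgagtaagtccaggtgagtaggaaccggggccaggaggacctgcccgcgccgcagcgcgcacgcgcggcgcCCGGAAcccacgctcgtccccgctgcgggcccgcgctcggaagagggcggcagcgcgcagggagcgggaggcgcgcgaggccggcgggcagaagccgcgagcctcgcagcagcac
Dusp1 held a full CRE at positions -143 to -136 from the start, a motif found in 1.79% of 32851 promoter windows. Dusp5 held a pair of adjoining CArG boxes, at -82 to -73 and -72 to -63, where 1.63% of windows hold any. Dusp14 held an Ets core at -65 to -60, which 14.9% of windows share, and so did Spry2, whose window is not printed, at 33 to 38 after the start. Dusp6 matched none of the 6 motifs in this window. AP-1 (7.81% of windows), EGR (5.55%) and TATAAA (13.62%) were found in none of these 4 windows. A match is a description of letters and no evidence of binding.

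The comparison of 6 h with 1 h asks how these messages differed between the times. In the fitted model this is the difference between the control libraries of the same tissue, with 2 libraries at each time. It covers time of day and handling as well as time after the session. Any technical difference between the 1 h and 6 h libraries falls on the same contrast and cannot be told apart from time. In the fit Dusp6 and Dusp4 passed as lower at 6 h, though Dusp4 was as high in the hippocampus conditioned 6 h library as in the 1 h controls. All 8 messages had a negative fitted change, as did 6086 of 11783 genes. Of the 8, 2 passed the edgeR test at an adjusted p of 0.05. That share was near the 23.2% of the 16123 rows tested that passed in either direction (12.9% higher and 10.3% lower). The median log2 change of the 8 was -0.64, against -0.06 over 11783 genes. With the GC and length offsets described below, 6 of the 8 messages and 6353 of the 11783 genes had a negative change. Without the hippocampus control 6 h library, 7 of the 8 messages and 6207 of 12328 genes had one. All 8 passed the low-count filter, Dusp5 mainly through its 1 h libraries, so its change is given by counts as well.

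Dusp6 encodes the cytoplasmic phosphatase MKP-3, which acts on ERK almost alone and is induced by it. Its level was 104 CPM in the cortex control and 49.6 CPM in the hippocampus control at 1 h. At 6 h it stood at 39.0 CPM in the cortex control, 12.7 in the hippocampus control, 28.6 in the cortex conditioned and 31.5 in the hippocampus conditioned library. Every 6 h library was thus below both 1 h controls, an arrangement that 25.1% of all rows showed. The controls fell to 0.375 of their 1 h level in the cortex (95% counting interval 0.315 to 0.445) and to 0.256 in the hippocampus (0.159 to 0.395). The fitted log2 change was -1.54 (SE 0.45, edgeR adjusted p = 0.02). Without the hippocampus control 6 h library it was -1.10 (adjusted p = 0.11), without the cortex control 1 h library -1.28 (0.31) and without the hippocampus control 1 h library -1.75 (0.192, where 0 rows passed in all).

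Dusp4, a nuclear phosphatase (MKP-2) that acts on ERK and JNK, was called in fewer settings. It stood at 16.2 CPM in the cortex and 18.1 CPM in the hippocampus control at 1 h, and at 4.16 and 6.09 CPM in the same tissues at 6 h. The cortex conditioned 6 h library was low too, at 2.29 CPM, whereas the hippocampus conditioned 6 h library was as high as the 1 h controls, at 17.9 CPM. The times therefore overlapped. The log2 change was -1.72 (SE 0.61, edgeR adjusted p = 0.0439), with an adjusted p of 0.0607 in DESeq2 and 0.0702 in limma-voom, where 23.7% and 22.6% of rows passed. Without the hippocampus control 6 h library it was -1.36 (adjusted p = 0.13), where 6.71% of rows passed.

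Dusp5, which encodes the nuclear ERK-specific phosphatase, was barely detected in the 6 h cortex libraries. It had 14 counts in the cortex control at 1 h and 1 count in each of the cortex libraries at 6 h. In the hippocampus it had 17 counts in the control at 1 h, and 6 (control) and 9 (conditioned) at 6 h. In CPM the 1 h controls stood at 3.71 and 3.94, and the 6 h libraries at 0.189 (cortex control), 0.191 (cortex conditioned), 3.32 (hippocampus control) and 2.07 (hippocampus conditioned), all below the 1 h controls. The cortex control ratio of 6 h to 1 h was 0.051, with a wide counting interval of 0.0012 to 0.335, and the hippocampus ratio was 0.842 (0.272 to 2.24). The fitted log2 change of -1.68 (SE 0.90) did not pass (edgeR adjusted p = 0.166). With the conditioned 1 h libraries, which could not be told apart, added as labelled it was -2.09 (edgeR adjusted p = 0.0164, where 42.4% of rows passed). With these summed to 1 sample set midway between the tissues it was -2.13 (0.0241, where 37.7% passed). Without the hippocampus control 6 h library it was -3.63 (0.0619).

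Dusp14, a small atypical phosphatase (MKP-6) that lacks the kinase-docking domain of the others, had a log2 change of -0.90 (SE 0.41, edgeR adjusted p = 0.103). It passed with the conditioned 1 h libraries added (-0.98, adjusted p = 0.0318) or summed (-0.96, 0.0124). Changes of the remaining messages were small in the fit of 6 libraries without offsets, with edgeR adjusted p from 0.49 to 0.888. They were -0.09 (SE 0.41) for Dusp1, the nuclear phosphatase MKP-1, -0.39 (SE 0.41) for Spry2, -0.37 (SE 0.49) for Spry4 and -0.28 (SE 0.44) for Trib1. Within tissues, the control ratio of 6 h to 1 h had a counting interval below 1 for 7 messages in the cortex (31% of all rows) and for 5 in the hippocampus (35.5% of all rows). Dusp1 was 0.690 of its 1 h level in the cortex (0.603 to 0.789) and 1.26 in the hippocampus (0.961 to 1.63). Trib1 followed it, at 0.628 (0.509 to 0.773) and 1.07 (0.690 to 1.62).

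**Figure D2:**
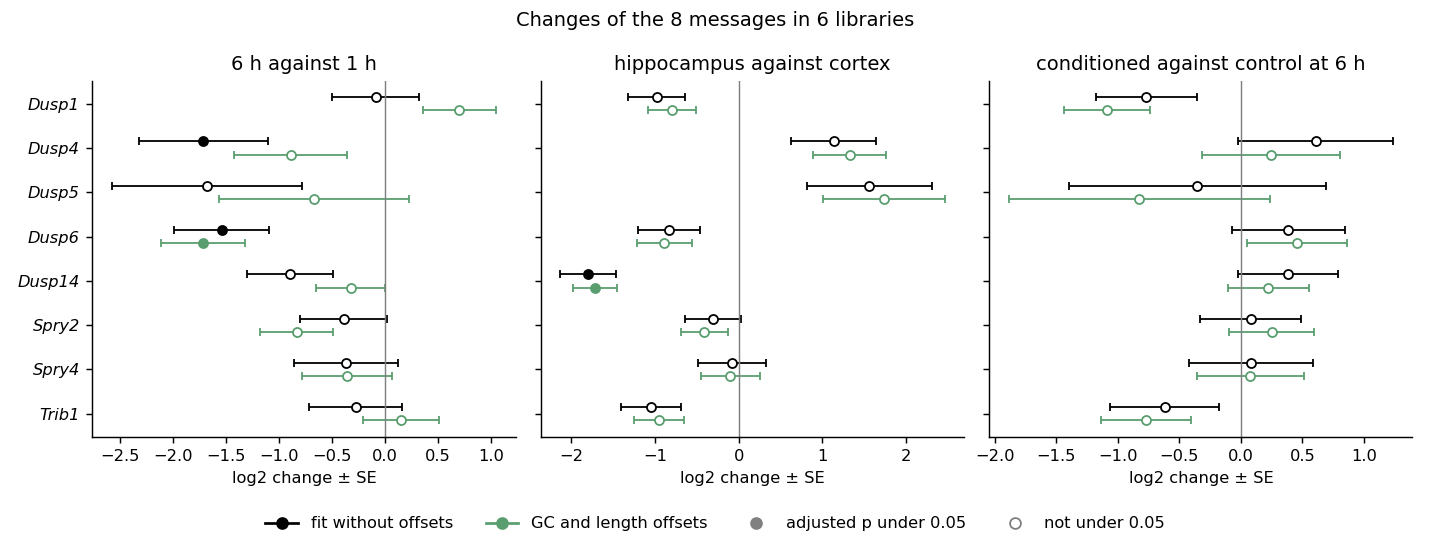
Fitted log2 change (± SE) of each message between 6 h and 1 h, hippocampus and cortex, and conditioned and control at 6 h, in 6 libraries, without (black) and with (green) offsets for GC content and length. Filled points passed at an adjusted p of 0.05: Dusp4 and Dusp6 between the times, with Dusp6 alone left after the offsets, and Dusp14 between the tissues in both fits.

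The libraries also differed in base composition, and whether this was technical or biological was not tested. GC content and length took 50.6% and 44.4% of the variance of a library's deviations from the mean of the 6 libraries in the 1 h controls of cortex and hippocampus and 45.9% in the hippocampus control 6 h library, against 4.1% to 12% in the other 6 h libraries. Across 15744 rows the log2 change between the times was lower at higher GC content of the transcript (Spearman rho = -0.746, a description across genes, which are not independent replicates). GC-rich messages were thus lower at 6 h as a class, and Dusp4 and Dusp5, at 56.0% and 56.7% GC, belonged to it: rows within 1 percentage point of them had median log2 changes of -0.95 and -1.05. Dusp6, at 49.0% GC, did not, since rows of like GC had a median of 0.17 and only 1.8% of them had a lower value than Dusp6. For Spry2, the most AT-rich of the 8 at 46.2% GC, 9.1% of rows of like GC had a lower value. At the other end, Dusp1 (54.9% GC) was higher than 81.1% of like rows. With GC content and length entered as offsets, 5.76% of rows passed between the times (4.22% higher and 1.54% lower). Dusp6 was then at -1.72 (SE 0.40, edgeR adjusted p = 0.018), Dusp4 at -0.89 (SE 0.53, adjusted p = 0.349) and Spry2 at -0.835 (SE 0.344, adjusted p = 0.162). Dusp1 turned to 0.70 (SE 0.35, adjusted p = 0.253) and Trib1 to 0.15 (adjusted p = 0.842). With the offsets and without the hippocampus control 6 h library Dusp6 was at -1.24 (adjusted p = 0.0402, where 2.49% of rows passed), and with the offsets and the conditioned 1 h libraries summed at -1.51 (adjusted p = 0.0166, where 11.1% passed).

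**Figure D3:**
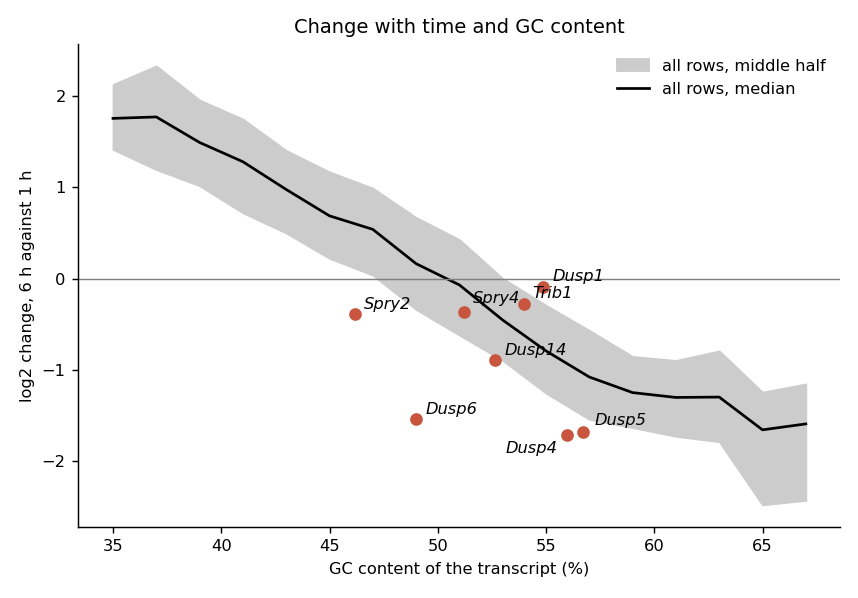
Fitted log2 change between 6 h and 1 h against the GC content of the transcript (%), with the median (line) and the interquartile band (grey) of all rows in 2-point bins and the 8 messages as points. Dusp6, at 49.0% GC and -1.54, lies far below the band, while Dusp4 and Dusp5 lie near its lower edge and Dusp1 and Trib1 near its upper edge.

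The comparison of hippocampus with cortex rests on 3 libraries of each tissue. Dusp14 was lower in the hippocampus, the only message of the 8 to pass, where 3.72% of rows passed (1.72% higher and 2% lower). It stood at 99.9 CPM (control 1 h), 55.6 (control 6 h) and 74.9 (conditioned 6 h) in the cortex. In the hippocampus the same groups had 32.7, 15.5 and 20.01 CPM, so that the highest hippocampus library was below the lowest cortex library. The means were 76.8 ± 22.2 CPM in the cortex and 22.7 ± 8.93 CPM in the hippocampus (SD, n = 3), a log2 change of -1.80 (SE 0.33, edgeR adjusted p = 0.00188). Ratios within matched pairs were close to each other, at 0.327, 0.279 and 0.267 for control 1 h, control 6 h and conditioned 6 h. Without the hippocampus control 6 h library the change was -1.82 (adjusted p = 1.37e-05), and it was -1.72 (adjusted p = 0.000348) with the GC and length offsets, where 5.2% and 6.21% of rows passed. Without either 1 h control the change was as large but its SE grew, and it missed the threshold. It was -1.87 (SE 0.53, edgeR adjusted p = 0.0581) without the cortex and -1.86 (SE 0.52, adjusted p = 0.0603) without the hippocampus library. Both of these fits compare the tissues through the same 6 h pairs, so they are not separate checks. The Dusp14 change kept its direction but not its call in a further setting. This was the fit with all 8 libraries as labelled (-1.29, adjusted p = 0.248), where 0 rows passed. Striatal markers were also higher in the cortex libraries, and their part in the difference was not tested.

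Dusp1 and Trib1 had similar profiles and did not pass between tissues. Dusp1 is induced by activity and by glucocorticoids and acts on p38, JNK and ERK. Its level was 118 CPM (control 1 h), 81.7 (control 6 h) and 45.4 (conditioned 6 h) in the cortex, against 39.2, 49.2 and 30.8 CPM in the hippocampus. The ranges overlapped, and the log2 change was -0.98 (SE 0.34, edgeR adjusted p = 0.131). Trib1 encodes a pseudokinase that binds MEK1 and recruits the COP1 ubiquitin ligase to C/EBP factors. It stood at 52.7, 33.1 and 20.6 CPM in the cortex and at 17.6, 18.8 and 12.9 CPM in the hippocampus, and like Dusp14 it did not overlap between tissues (6.33% of rows were arranged in this way). Its log2 change was -1.05 (SE 0.36, adjusted p = 0.13). Without the hippocampus control 6 h library both passed, Dusp1 at -1.15 (edgeR adjusted p = 0.0168) and Trib1 at -1.21 (0.0322), where 5.2% of rows passed. Leaving out the cortex control 6 h library instead gave nearly the same values (0.0211 and 0.0389, where 5.11% of rows passed). Either way the remaining control 6 h library has no partner, so both fits compare the same control 1 h and conditioned 6 h pairs. They are not separate checks.

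Dusp4 and Dusp5 pointed the other way, with fitted changes of 1.13 (SE 0.51, edgeR adjusted p = 0.315) and 1.56 (SE 0.74, adjusted p = 0.359). Their hippocampal excess was larger at 6 h than at 1 h, a difference that was not tested. Dusp4 was 1.12 times as high in the hippocampus as in the cortex control at 1 h (counting interval 0.790 to 1.59), 1.46 times as high at 6 h (0.641 to 3.15) and 7.84 times as high among conditioned libraries at 6 h (4.24 to 15.8). Dusp5 had ratios of 1.06 (0.493 to 2.33) at 1 h, and of 17.6 (2.13 to 807.5) and 10.9 (1.5 to 475.8) in the control and conditioned pairs at 6 h, each resting on 1 count in the cortex. Intervals above 1 were held by 27.5% of rows in the control and 22.5% in the conditioned pair at 6 h. Dusp6 stood at -0.84 (SE 0.37, adjusted p = 0.313), Spry2 at -0.31 (SE 0.33, adjusted p = 0.785) and Spry4 at -0.08 (SE 0.41, adjusted p = 0.963). Among Sprouty proteins, inhibitors of receptor-driven Ras activation, Spry2 was the steadiest message, at 54.3, 40.5 and 36.0 CPM in the cortex and 40.4, 28.8 and 37.0 CPM in the hippocampus (control 1 h, control 6 h and conditioned 6 h).

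Training was compared at 6 h, with 1 control and 1 conditioned library in each tissue. None of the 8 messages passed, nor did any of the 16123 rows (0% in edgeR, DESeq2 and limma-voom, with 666, 491 and 657 rows at an unadjusted p under 0.05). Dusp1 was the only message of the 8 whose conditioned libraries both lay below both controls. It went from 81.7 to 45.4 CPM in the cortex and from 49.2 to 30.8 CPM in the hippocampus, an arrangement that 12.9% of rows showed. The ratios were 0.556 (counting interval 0.472 to 0.652) and 0.626 (0.475 to 0.828), and the fitted log2 change was -0.77 (SE 0.41, edgeR adjusted p = 0.911). Trib1 had ratios of 0.622 (0.485 to 0.796) and 0.685 (0.439 to 1.08) and a log2 change of -0.62 (SE 0.44, adjusted p = 0.911). In the cortex, where both were lower, so were 9 of 9 striatal markers, with none at 0 and a summed level of 178.9 CPM in the conditioned and 313.5 CPM in the control library. In the hippocampus 6 of the 9 were higher and 3 lower in the conditioned library, and the sum was higher (53.4 against 29.9 CPM, with Six3 at 0 in the conditioned and Tac1 and Adora2a at 0 in the control library). The part of striatal RNA in either ratio was not tested.

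Other messages had ratios on opposite sides of 1 in the tissues. Dusp6 had a ratio of conditioned to control of 0.734 in the cortex (0.591 to 0.911) and of 2.48 in the hippocampus (1.58 to 4.04). Spry4 went from 16.8 to 10.3 CPM in the cortex and from 8.30 to 17.3 CPM in the hippocampus, with ratios of 0.612 (0.428 to 0.868) and 2.08 (1.18 to 3.90). Dusp4 had 22 and 12 counts in the cortex (ratio 0.550, 0.248 to 1.16) and 11 and 78 in the hippocampus (ratio 2.95, 1.56 to 6.15). The difference between tissues was not tested, and each hippocampal ratio rests on the control 6 h library that stood apart. Across 15744 rows the hippocampal log2 ratio was higher at higher GC content (Spearman rho = 0.615, a description across genes), whereas in the cortex rho was -0.091. Among rows of like GC, 8% had a higher hippocampal ratio than Dusp6, 15.6% than Spry4 and 26.8% than Dusp4, while 6.5% had a lower one than Dusp1 and 10.1% than Trib1. Of 5 choroid plexus and ependymal markers 4 were higher in the hippocampus conditioned 6 h library, with sums of 80.0 and 16.6 CPM and Folr1 at 0 in both, and their part was not tested. Dusp14 had ratios above 1 in both tissues, at 1.35 (1.16 to 1.57) and 1.29 (0.835 to 2.06), with a fitted log2 change of 0.39 (SE 0.40, adjusted p = 0.921). Spry2 had ratios of 0.891 (0.729 to 1.09) and 1.29 (0.936 to 1.80), and Dusp5 had too few counts for a ratio to be read in the cortex.

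Counting intervals at 6 h lay below 1 for 4 of the 8 messages and above it for 1 in the cortex, where 10.7% of all rows lay below and 11.9% above. In the hippocampus 1 lay below and 3 above, beside 26.2% and 27.2% of all rows. The intervals cover counting error only, and no differences between mice or libraries. Amplified reads carried no molecular identifiers and may be copies of 1 molecule, so the intervals may be too narrow. Fitted log2 changes with training were 0.61 (SE 0.63) for Dusp4, -0.35 (SE 1.04) for Dusp5, 0.39 (SE 0.46) for Dusp6 and 0.08 for Spry2 (SE 0.41) and Spry4 (SE 0.50), with edgeR adjusted p from 0.921 to 0.98.

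**Figure D4:**
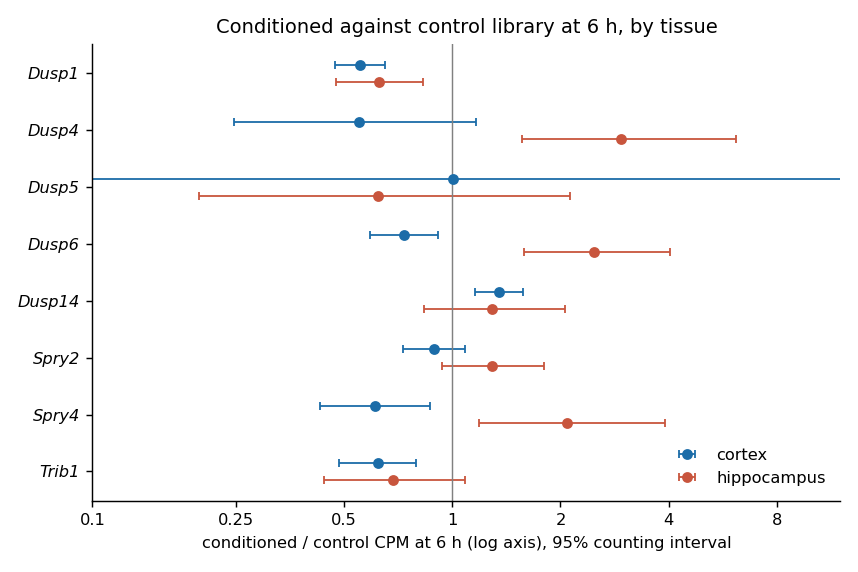
Ratio of conditioned to control CPM at 6 h (log axis) in the cortex (blue) and the hippocampus (red), 1 library each, with 95% counting intervals; the cortex interval of Dusp5, with 1 count in each library, runs off the axis. Dusp1 lies below 1 in both tissues (0.556 and 0.626), while Dusp6 (0.734 and 2.48) and Spry4 (0.612 and 2.08) lie on opposite sides of 1.

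At 1 h, the libraries labelled conditioned had near-equal levels of these messages. Dusp1 stood at 55.9 CPM in the library labelled cortex and 56.3 CPM in that labelled hippocampus, Dusp6 at 66.0 and 69.6 CPM, Dusp14 at 79.1 and 82.9 CPM, and Trib1 at 24.1 and 26.2 CPM. The other messages were at 11.7 and 13.1 CPM (Dusp4), 4.13 and 7.28 CPM (Dusp5), 39.2 and 30.6 CPM (Spry2) and 21.8 and 19.4 CPM (Spry4). Of the 8, only Spry2 had a ratio with a counting interval off 1 (0.780, 0.614 to 0.987), where 2.47% of rows lay below and 2.82% above. Summed, the libraries lay below the cortex control for 5 messages (13.6% of rows), with ratios of 0.474 for Dusp1 (0.415 to 0.540), 0.476 for Trib1 (0.390 to 0.580), 0.652 for Dusp6 (0.573 to 0.744), 0.644 for Spry2 (0.537 to 0.774) and 0.810 for Dusp14 (0.714 to 0.921). Against the hippocampus control 4 lay above (17.6% of rows) and 1, Dusp4, below (23.8% of rows).

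The messages did not lie at a common point between the tissues. On a scale from the hippocampus control (0) to the cortex control (1) at 1 h, Dusp14 was at 0.69 and 0.747 in the libraries labelled cortex and hippocampus. Dusp1 was at 0.211 and 0.215, Trib1 at 0.183 and 0.244, and Dusp6 at 0.302 and 0.368. The 532 rows that reached 10 CPM in the cortex control and were there at least 2 times as high as in the hippocampus control had medians of 0.549 and 0.574, with interquartile ranges of 0.44 to 0.666 and 0.444 to 0.712. Dusp1, Trib1 and Dusp6 were thus nearer to the hippocampus control than most such rows. Since these libraries could not be told apart, no training effect at 1 h was drawn from them.

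Messages of similar profile were sought over 7 samples, with the conditioned 1 h libraries as 1, among 10248 genes, by Pearson r of log2 CPM and with no test. Dusp1 and Trib1 were among each other's 3 closest (r = 0.99), and both shared Rbm5 (0.997 with Dusp1 and 0.996 with Trib1) and Kpna2 (0.967 and 0.974). The closest to Dusp6 were Sars (0.995), Ecd (0.993) and Uqcrc1 (0.992), and to Dusp14 Chrna4 (0.989), Tgfbrap1 (0.986) and Myl4 (0.985). Actb (0.97), Arhgap39 (0.968) and Sema4b (0.965) were closest to Dusp4, and Brd2 (0.981), Syn2 and Wdr1 (each 0.975) to Dusp5. For the Sprouty messages these were Rassf5 (0.942), Klf10 (0.94) and Osbp (0.932) with Spry2, and Carm1 (0.994), Zfp362 (0.985) and Sf3a2 (0.977) with Spry4. The 7 samples share tissues, times and differences in base composition. Among the 8 themselves r was otherwise highest between Dusp6 and Spry2 (0.829), Dusp6 and Spry4 (0.823) and Dusp4 and Dusp5 (0.803).

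The rest of the pathway was described from lists of named genes, first between 6 h and 1 h, where 12.5% of all 11783 genes were higher and 10.9% lower (3.39% and 1.54% with the GC and length offsets). Of 22 tested genes that ERK induces or acts through, 8 were lower at 6 h and 0 higher, with a median log2 change of -1.10 against -0.06 over all genes. They were led by Egr4 (-1.91), Egr2 (-1.89) and Junb (-1.86), activity-induced transcription factors. With GC and length offsets 2 of the 8 passed, Egr2 (-1.73, edgeR adjusted p = 0.0442) and Egr3 (-1.65, adjusted p = 0.0411). Without the hippocampus control 6 h library the list median was -0.69, against -0.008 over all genes. Fewer genes then passed, in this list and in all. Of 25 genes of the Ras-ERK cascade 5 were higher, including the GTPase gene Rap1a (1.88) and the exchange factor gene Sos1 (1.64), and 5 lower, including Hras (-2.11), the kinase gene Rps6ka4 (-1.73) and Map2k2 (-1.65), which encodes MEK2. In the JNK and p38 cascades Mapk8 (1.56) and Map2k4 (1.18) were higher and the scaffold genes Mapk8ip1 (-2.23) and Mapk8ip2 (-1.67) lower, of 16 tested. None of these cascade genes passed with the offsets. Without the hippocampus control 6 h library the Ras-ERK median was 0.09, against 0.28 with it. The JNK and p38 median was -0.15, against 0.13 with it.

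Of 16 other feedback inhibitors tested, Rasa1 (2.06) and Rasa2 (1.92) were higher at 6 h and Pebp1 (-2.09) and Rasal1 (-1.57) lower. None passed with the offsets. Without the hippocampus control 6 h library the median of this list was -0.20, against -0.31 with it. Of 12 other atypical phosphatases Styx, a catalytically inactive member, was higher (3.20, edgeR adjusted p = 0.00512, and 1.25, adjusted p = 0.282, with the offsets). The 4 tested of 6 other typical MAP kinase phosphatases had changes between -0.39 and 0.57, the smallest unadjusted p belonging to Dusp16 (0.57) and Dusp7 (-0.36). Among 17 receptors and adaptors none passed, with Fgfr3 at -1.34 and Erbb3 at -1.47, and Ntrk3, the neurotrophin-3 receptor, passed with the offsets (-1.17, adjusted p = 0.0284).

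**Figure D5:**
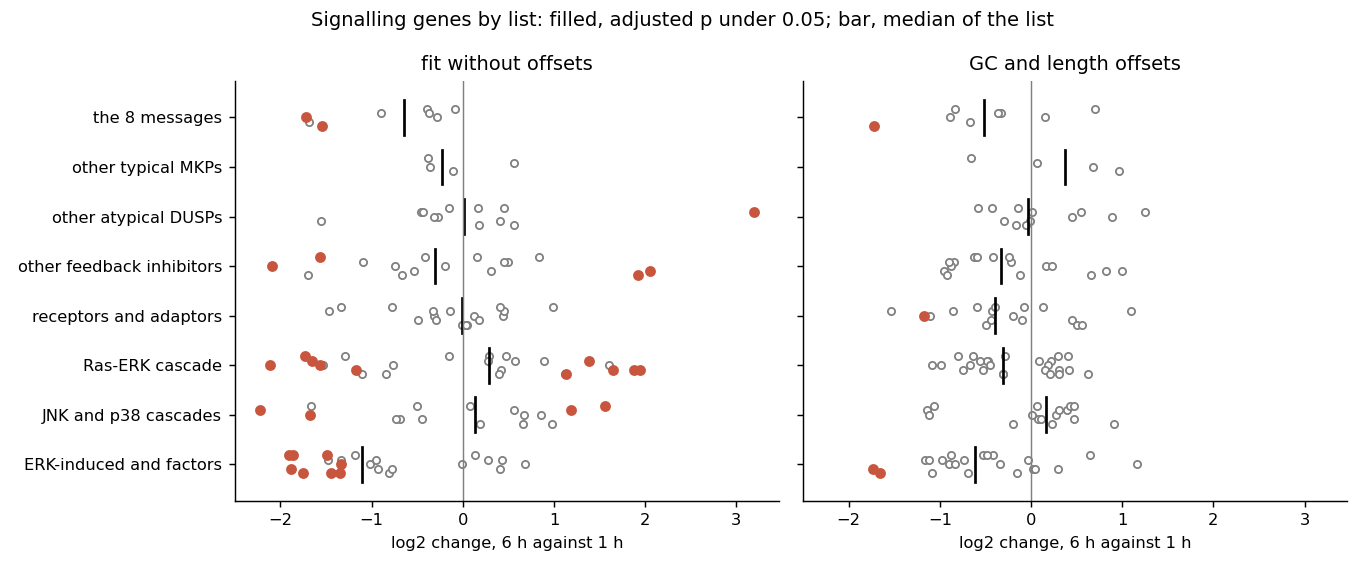
Fitted log2 change between 6 h and 1 h of each tested gene, by list, without (left) and with (right) offsets for GC content and length; filled points passed at an adjusted p of 0.05 and bars are list medians. The 22 tested genes that ERK induces or acts through have a median of -1.10 on the left and -0.61 on the right, and no cascade gene is filled on the right.

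Between tissues, Fgfr1, a fibroblast growth factor receptor, was higher in the hippocampus (1.80, edgeR adjusted p = 0.00305), and the ERK-induced genes Ier5 (-1.91, adjusted p = 0.00449) and Egr1 (-1.25, adjusted p = 0.0455) were lower. These were the 3 genes of the pathway lists that passed, beside 1.77% of all genes higher and 1.84% lower, and each passed with the offsets as well. The offsets, with which 2.92% of all genes were higher and 2.98% lower, added the scaffold gene Ksr1 (1.44, adjusted p = 0.00421) as higher, and Rps6ka3 (-1.21, adjusted p = 0.0152), Rasgrf2 (-0.83, adjusted p = 0.0485), Egr2 (-1.52, adjusted p = 0.0427) and Fos (-1.41, adjusted p = 0.0483) as lower. Values of smallest p elsewhere were 1.19 for Ksr1 and 1.22 for Rap1a in the Ras-ERK cascade, -1.14 for Mapk11 and 0.75 for Map2k4, -1.06 for Dusp26 and -0.94 for Dusp15, and -1.14 for Pebp1 and 0.81 for Rasa1. Dusp8 (0.20) and Dusp16 (-0.17) stood for the other typical phosphatases. With training at 6 h no gene of any list passed. The smallest unadjusted p was that of Fos, at a log2 change of -1.83 (SE 0.62, edgeR adjusted p = 0.911), and Egr3 stood at 1.00 in the same list. Mapk14 (-1.17) and Mapk8ip2 (0.92), Rap1a (-0.92) and Rps6ka2 (0.78), Rasa1 (-0.87) and Spred1 (-0.66), Dusp16 (-0.93) and Dusp8 (-0.64), Dusp22 (-0.66) and Dusp19 (-0.63), and Fgfr2 (0.65) and Ntrk2 (0.46) were the corresponding pairs of the other lists.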

How the data were processed

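Polyribosome-associated RNA was sequenced from 8 mouse libraries. After depletion of ribosomal RNA, the cDNA was made with hexamer and poly A primers and amplified, per the labels' protocols. The authors deposited raw counts of reads for each RefSeq transcript. The submitters' processing notes name TopHat 1.3.1, CASAVA 1.7, limma 3.12.3, edgeR and the build mm9. No source used here gives the counting program or its treatment of strand and shared reads, so overlapping or near-identical genes could share reads.

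Identifiers (98.1% of 27304 matched) were given symbols from RefSeq tables of GRCm38 or, failing these, from the GENCODE annotation. Transcript GC content and length (97.46% of 28157 rows) were those of the longest GENCODE transcript linked to the identifier or, failing that, to its symbol. Counts were tested with the edgeR 4.0.16 quasi-likelihood test (robust, TMM factors, default low-count filter, Benjamini-Hochberg adjustment at 0.05, R 4.3.3) in an additive model of tissue, training and time on 6 libraries, with 2 residual degrees of freedom, and the test was tried on simulated counts. Alternatives used DESeq2 1.42.0, limma-voom 3.58.1, other size factors, no filter, GC and length offsets, summed rows, other library sets and each library left out. CPM intervals are exact Poisson and ratio intervals exact binomial, at 95%. Pathway genes named are up to 3 largest changes per direction among those passing in a list, or the 2 of smallest p where none passed; some values that this rule or the marker lists would name are not reported here. The members and gene lists were chosen with earlier results of these data known.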

Additional observations from a re-analysis of the deposited data

Results flagged for a closer look

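Dusp6 and Spry4 had opposite differences between conditioned and control libraries at 6 h in the tissues, with 1 library in each group. The ratio of conditioned to control CPM was 0.734 in the cortex and 2.48 in the hippocampus for Dusp6. For Spry4 it was 0.612 in the cortex and 2.08 in the hippocampus. All 4 counting intervals excluded 1. The difference between the tissues was not tested. The hippocampus control 6 h library stood apart in depth, in Kif5c and in GC trend. Without it, the fitted training change was -0.12 for Dusp6 and -0.49 for Spry4 on the log2 scale. That fit has the cortex library as its only control at 6 h. It therefore cannot say whether the hippocampal ratios depend on the library left out.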

How the results depend on the processing

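Over 17 alternatives, 348 of 408 values of the 8 messages kept their direction and their side of the threshold. Without GC and length offsets, the Dusp6 call between the times was lost only without a 1 h control or the hippocampus control 6 h library. The Dusp14 call between tissues was lost without a 1 h control and with all 8 libraries, and the Dusp4 call between the times in most settings. The cause was not tested.

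The number of rows passing between the times was 3745 and became 6915 with all 8 libraries, 6167 with the conditioned 1 h libraries summed, 928 with GC and length offsets, 418 with the offsets and without the hippocampus control 6 h library, and 1810 with the offsets and the summed pair (both combinations chosen after seeing the data). Leaving out 1 library gave 0 (hippocampus control 1 h) to 6966 (cortex control 6 h), with 410 without the cortex control 1 h and 1128 without the hippocampus control 6 h library. Of rows passing, 55.7% were higher at 6 h, against 73.3% with offsets. Upper-quartile factors moved the median log2 change of all rows from -0.034 to -0.174. Between tissues the number was 600 and became 0 with all 8 libraries, 921 without a filter, 1002 with offsets, 346 with summed rows, 1364 with offsets and without the hippocampus control 6 h library, and 1079 with offsets and the summed pair. It ranged from 200 to 874 with 1 library left out. With training it was 0, and 0 to 2067 with 1 library left out, 2067 without the cortex control 6 h and 1 without the cortex conditioned 6 h library, when none of the 8 messages passed.

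Directions that turned were all of changes that had not passed. Between the times Dusp1 was 0.70 with offsets, 0.27 with offsets and without the hippocampus control 6 h library, and 0.37 with offsets and the summed pair, and Trib1 was 0.15 with offsets. Offsets without that library gave Spry4 0.21 between the times and 0.29 between the tissues, and, with training, 1.68 for Dusp5, -0.11 for Dusp6, -0.014 for Spry2 and -0.54 for Spry4. With all 8 libraries, where training covers both times, Dusp5 was 0.30 and Spry2 -0.17, and with the pair summed 0.30 and -0.11. With offsets and the summed pair Dusp4 was -0.14 and Dusp5 0.18. With 1 library left out, changes between the times ranged from -0.56 to 0.49 for Dusp1, -0.69 to 0.24 for Trib1 and -1.13 to 0.17 for Spry4, and between tissues from -0.53 to 0.29 for Spry4. With training they ranged from -0.98 to 1.67 for Dusp4, -1.87 to 1.76 for Dusp5, -0.35 to 1.12 for Dusp6, -0.18 to 0.33 for Spry2 and -0.53 to 0.81 for Spry4. No paired analysis was possible because each group holds 1 library, so that no replicate number could serve as a block; the model of tissue, training and time already compares matched libraries. Depth limits Dusp5 most, with 96 counts in all.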

Other observations

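Markers of other cell types were counted in the same fits, in which 1.77% of all genes were higher and 1.84% lower in the hippocampus, and 12.5% higher and 10.9% lower at 6 h. Between tissues 1 of 8 oligodendrocyte markers, 1 of 8 astrocyte markers and 2 of 4 tested choroid plexus and ependymal markers were higher in the hippocampus, and none of 5 oligodendrocyte precursor, 7 microglial and 3 endothelial and mural markers passed. Between the times 3 of 12 hippocampal and 3 of 10 cortical neuron markers were higher at 6 h and 1 hippocampal marker lower. Of oligodendrocyte markers 1 was higher and 2 lower, of astrocyte markers 1 was higher and 1 lower, and of endothelial and mural markers 1 was lower. No marker of any of the 9 lists passed with training at 6 h.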
